A study of Mus musculus with 4 samples.

Results

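The genes described here are 9 members of the interferon signalling pathway, Ifnar1, Ifnar2, Jak1, Tyk2, Stat2, Irf9, Irf1, Irf3 and Irf7, chosen by name out of 21887 protein-coding genes on assembled mouse chromosomes. Accessible chromatin was mapped by ATAC-seq, in which a transposase cuts and tags open DNA, in 10T1/2 cells, a line of mouse embryonic fibroblasts. Of the 4 libraries, 2 came from Ranbp2 knockout cells and 2 from wild-type cells, and the comparison asks where open chromatin differs when Ranbp2, a nucleoporin of the cytoplasmic face of the nuclear pore, is missing. Knockout cells carry a CRISPR-Cas9 deletion of Ranbp2 and descend from 1 selected clone, so effects of the clone and of the knockout cannot be told apart. All cells were maintained in DMEM with serum, and the labels name no interferon or other treatment. They do not say whether the libraries of a genotype came from separate cultures, so the p-values here reflect the spread among these libraries alone, possibly a technical one.

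Type I interferons bind a receptor made of IFNAR1 and IFNAR2. The receptor carries the kinases TYK2 and JAK1, which phosphorylate STAT2. With IRF9, STAT2 is part of the complex ISGF3, which binds interferon-stimulated response elements in the promoters of antiviral genes. IRF3 and IRF7 act upstream of the receptor, where they are activated by sensors of foreign nucleic acid and switch on interferon genes, and IRF1 is itself induced by interferon-gamma. In fibroblasts the receptor, the kinases, STAT2 and IRF3 are made without stimulation, while IRF7 is mostly made after interferon has been sensed.

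The knockout lists held 13877 and 24292 peaks and the wild-type lists 33721 and 18511, and read depth is unknown because the files hold no counts. A peak's fold enrichment is the authors' own value, the ratio of signal at its summit to background in that library, and the median over a whole list was 7.28 and 6.78 in the knockout and 7.72 and 8.92 in the wild-type lists. Gene-end peaks of 13 fibroblast markers were found for 3 and 5 in the knockout and 10 and 7 in the wild-type lists, with Fn1, Vim and Col1a2 in all 4 lists and Pdgfra, Prrx1 and Lum in none. Of 10 immune markers, Cd68 had one in knockout 2 alone and Spi1 in wild type 1 alone, and none of 6 endothelial or 6 epithelial markers had one. Since a library pools many cells, a weaker opening in all cells and a loss in some of them cannot be told apart.

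The promoters of 5 members are shown because the results below turn on their gene starts, in mm10 coordinates with the RefSeq sequence of build GRCm38.p6. Each runs 5′ to 3′ over 300 bases of the gene's own strand, with 250 bases before and 50 from a RefSeq transcript start, which for Ifnar1, Tyk2 and Irf7 lies inside the gene span, and capitals mark a match to one of the 2 motifs searched. They are Ifnar1 on the plus strand at chr16:91484965-91485264, Tyk2 on the minus strand at chr9:21131226-21131525, Stat2 on the plus strand at chr10:128270248-128270547, Irf1 on the plus strand at chr11:53769764-53770063 and Irf7 on the minus strand at chr7:141266375-141266674.
Ifnar1: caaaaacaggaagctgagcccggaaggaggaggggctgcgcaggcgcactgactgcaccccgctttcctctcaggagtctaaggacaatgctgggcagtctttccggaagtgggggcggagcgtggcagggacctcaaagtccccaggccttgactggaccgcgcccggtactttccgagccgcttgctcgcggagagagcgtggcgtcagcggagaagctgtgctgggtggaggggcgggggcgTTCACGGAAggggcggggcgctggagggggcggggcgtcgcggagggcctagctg
Tyk2: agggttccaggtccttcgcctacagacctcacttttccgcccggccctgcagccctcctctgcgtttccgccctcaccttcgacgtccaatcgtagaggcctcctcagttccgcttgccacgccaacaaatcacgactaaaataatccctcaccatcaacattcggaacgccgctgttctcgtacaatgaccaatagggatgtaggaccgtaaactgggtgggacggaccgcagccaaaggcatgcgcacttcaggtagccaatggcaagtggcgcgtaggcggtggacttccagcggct
Stat2: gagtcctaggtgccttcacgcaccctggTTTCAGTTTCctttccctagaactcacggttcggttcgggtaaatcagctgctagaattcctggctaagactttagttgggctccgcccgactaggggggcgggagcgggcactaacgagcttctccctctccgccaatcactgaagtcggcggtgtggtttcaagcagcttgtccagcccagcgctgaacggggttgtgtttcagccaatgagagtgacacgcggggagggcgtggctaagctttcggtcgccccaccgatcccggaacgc
Irf1: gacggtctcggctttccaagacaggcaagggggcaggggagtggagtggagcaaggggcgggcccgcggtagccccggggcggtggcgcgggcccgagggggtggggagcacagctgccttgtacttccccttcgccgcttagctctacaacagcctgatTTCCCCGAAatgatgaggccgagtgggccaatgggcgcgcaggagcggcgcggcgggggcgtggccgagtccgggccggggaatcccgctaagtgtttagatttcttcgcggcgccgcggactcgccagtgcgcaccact
Irf7: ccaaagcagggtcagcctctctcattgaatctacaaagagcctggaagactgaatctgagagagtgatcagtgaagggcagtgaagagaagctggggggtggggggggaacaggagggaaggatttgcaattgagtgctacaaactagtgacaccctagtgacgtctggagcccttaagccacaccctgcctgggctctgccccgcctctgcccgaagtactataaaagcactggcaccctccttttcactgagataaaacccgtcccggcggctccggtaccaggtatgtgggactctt

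The motifs were the core of the interferon-stimulated response element, which is GAAA, any 2 bases and GAAA, and the gamma-activated site bound by STAT dimers, TTCNNNGAA, each read on both strands. No member promoter held both, so no matches overlapped. The first was found in 3.44% and the second in 8.30% of all 32851 RefSeq promoters of this length. Among the 11 promoters listed for the members, 1 held the response element core and 3 held a gamma-activated site. The Stat2 match reads TTTCAGTTTC on the plus strand, begins 222 bases before the transcript start and lay inside the accessible site, 174 bp from its summit. The Irf1 match reads TTCCCCGAA, begins 90 bases before the start and lay 21 bp from the summit of the accessible site. The Ifnar1 match, TTCACGGAA, lay 9 bp outside the joined peaks at that gene, and a match at Ifnar2, TTCCTGGAA, lay 78 bp outside. Neither motif's letters were in the Tyk2 and Irf7 windows shown.

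All 9 members had an accessible gene start in at least 1 library, and 4 had it in all 4. These were a receptor chain, both kinases and the STAT, namely Ifnar1, Jak1, Tyk2 and Stat2. No member had its gene-end peaks in a single genotype's pair of libraries. A gene end here means that a peak's summit is at most 1 kb from the first or last base of the RefSeq gene span, and all such sites of the members lay at the 5′ end except 1 at Ifnar2. Over all protein-coding genes 26.4% had a gene-end peak in all 4 libraries, 0.0503% in both knockout libraries alone and 1.69% in both wild-type libraries alone. Without knockout 1, 7 members had a gene-end peak in all remaining lists. Without knockout 2, 3 members had one in wild-type lists alone, as 1 had without wild type 2. The shares over all genes were not counted for these reduced sets. They are not the shares given above, because fewer lists have to agree. Among the 9507 genes with a gene-end peak in at least 1 library, 60.9% had it in all 4.

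The number of members with a gene-end peak followed the length of the lists. It was 4 and 8 in the knockout lists 1 and 2, against 9 and 7 in the wild-type lists 1 and 2. The same share over all protein-coding genes was 27.6% and 36.3% in the knockout lists, against 42.5% and 34.6% in the wild-type lists. With only the 13877 best peaks of every list kept, 4 and 5 members had one in the knockout lists, against 6 and 6 in the wild-type lists. All protein-coding genes had the same order, with 27.6% and 29.8% in the knockout lists, against 31.5% and 30.6% in the wild-type lists. Irf9 was then present in both wild-type lists and neither knockout list, and Irf1 was missing from knockout 1 alone. The Irf9 peak of knockout 2 ranked 14910, so it fell just past this cut. The share of all genes present in both wild-type lists alone at equal length was not counted.

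**Figure D1:**
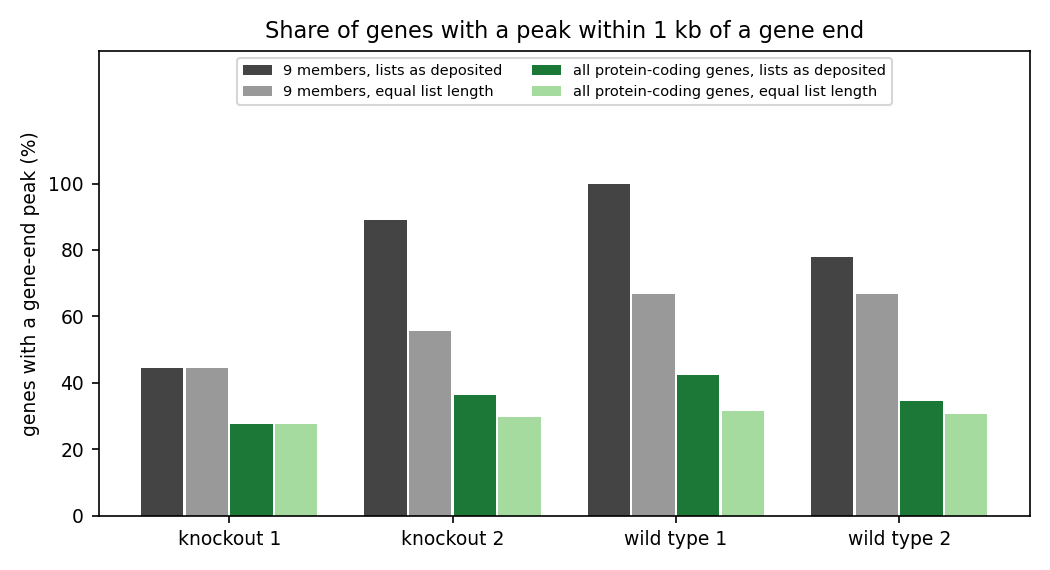
Share of genes in percent (y axis) with a peak within 1 kb of a gene end in each library (x axis), for the 9 members and for all 21887 protein-coding genes, with the lists as deposited and with 13877 peaks per list. At equal length the members' counts are 4 and 5 in the knockout lists and 6 and 6 in the wild-type lists.

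Of the receptor genes, Ifnar1 (gene 15975, chromosome 16, 91485032-91510523) had a strong site at its start in every library, and Ifnar2 a weak one that knockout 1 lacked. The Ifnar1 summit lay 80 bp inside the gene span. Its fold enrichment was 14.9 and 23.8 in the knockout libraries, against 27.5 and 25.5 in the wild-type libraries. The peak ranked 827 and 287 in the knockout lists, against 352 and 360 in the wild-type lists. It is thus low in knockout 1 and alike in the other 3 libraries, and the ranks of the genotypes overlap. Ifnar2 (gene 15976, chromosome 16, 91372783-91405589) encodes the chain that binds interferon most tightly. Its start had no peak in knockout 1 and a fold of 5.47 in knockout 2, against 6.68 and 5.66 in the wild-type libraries. A second site lay 0.630 kb past its 3′ end, at an end of Il10rb, with a fold of 5.74 in knockout 2 and 7.33 in wild type 1 and no peak in the other libraries.

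Both kinase genes were open in all 4 libraries, and in both the knockout folds were the lower ones. This was not particular to the kinases. At the starts of Ifnar1 (14.9 and 23.8, against 27.5 and 25.5) and Stat2 (14.0 and 15.3, against 23.0 and 17.2) the knockout folds were also the lower ones. Jak1 (gene 16451, chromosome 4, 101151974-101265282) encodes a kinase shared by many cytokine receptors, and its start site had folds of 10.9 and 11.7 in the knockout libraries, against 21.9 and 16.8 in the wild-type libraries. Within its list the peak ranked 2942 and 4804 in the knockout libraries, against 2045 and 2557 in the wild-type libraries. Tyk2 (gene 54721, chromosome 9, 21104068-21131393), the kinase bound to IFNAR1, had folds of 7.57 and 8.72 in the knockout libraries, against 11.9 and 11.1 in the wild-type libraries. Its ranks were 5689 and 5912 in the knockout lists, against 4073 and 3812 in the wild-type lists. The folds of the genotypes do not overlap at any of these starts, those of Ifnar1 and Stat2 included. The share of all shared sites with such folds was not counted. The lists differ in length and background, so these values describe each list and were not tested against each other.

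Among the transcription factors Stat2 alone had a start site in every list. Stat2 (gene 20847, chromosome 10, 128270498-128292853) had folds of 14.0 and 15.3 in the knockout libraries, against 23.0 and 17.2 in the wild-type libraries, and the same site lies within 1 kb of an end of Apof. Irf9 (gene 16391, chromosome 14, 55603985-55610030), a DNA-binding subunit of ISGF3, had no peak in knockout 1 and a fold of 5.41 in knockout 2, against 11.5 and 9.07 in the wild-type libraries. That site also lies within 1 kb of an end of Rnf31. Irf1 (gene 16362, chromosome 11, 53770014-53778374) had none in knockout 1 and 8.54 in knockout 2, against 16.7 and 10.7 in the wild-type libraries. For both genes the only knockout value lies below both wild-type values, and how often this holds over all sites was not counted.

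The genes for the inducers of interferon had start sites in the fewest lists. Irf3 (gene 54131, chromosome 7, 44997648-45002848) had a peak at -17 bp from its start in knockout 2, with a fold of 5.74, and in wild type 1, with a fold of 7.74, and none in the other libraries. These are the longest list of each genotype. A second Irf3 site, at -346 bp from the start, was present in wild type 1 alone with a fold of 7.59, and both sites also lie within 1 kb of an end of Bcl2l12. Irf7 (gene 54123, chromosome 7, 141263183-141266499) had a start peak in wild type 1 alone, with a fold of 7.37 at rank 19165 of 33721. That rank lies beyond the length of the knockout list 1 and of the wild-type list 2, so a site of the same rank would not be in those lists.

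**Figure D2:**
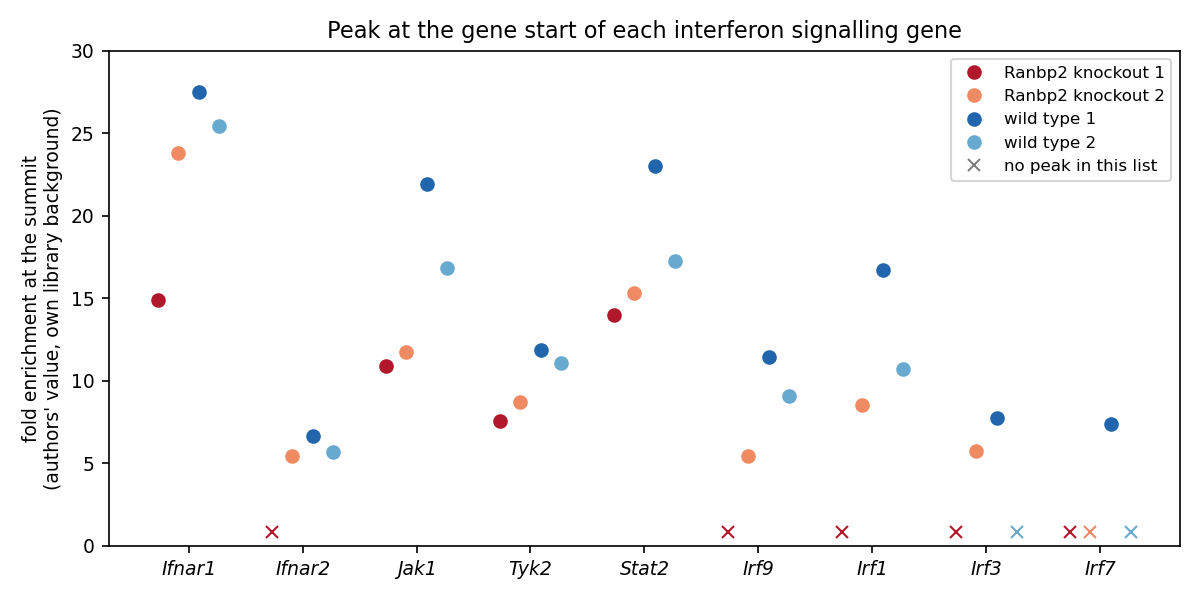
Fold enrichment of the peak at each member's start (y axis, the authors' value over the background of the same library) for the 9 members (x axis), with 1 point per library and a cross where a list held no peak. Ifnar1 reaches 23.8 in knockout 2, 27.5 in wild type 1 and 25.5 in wild type 2, and Irf7 has a peak in wild type 1 alone.

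In the windows from 50 kb before to 50 kb after the gene spans, peaks of the 4 lists joined into 60 sites, 1 of which lies in the windows of both Ifnar1 and Ifnar2. A site joins peaks that overlap by at least 1 bp. The sites were 11 at ends of the members, 3 inside their genes and 46 in the flanks, and 25 and 41 were present in the knockout lists, against 57 and 38 in the wild-type lists. All 4 libraries held 25 sites (41.7%), against 28.0% of all 39137 sites. A single library held 16 sites (26.7%), of which 13 were in wild type 1, against 40.9% of all sites. Of the 49 sites away from the members' own ends, 19 lay at an end of another protein-coding gene and 30 did not. Present in all 4 libraries were 12 of the 19 (63.2%) and 9 of the 30 (30%). The 28.0% above covers sites of every kind. Of all genes with a gene-end peak in at least 1 library, 60.9% had it in all 4, a share of genes and not of sites.

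No site was held by both knockout libraries alone, where the share over all sites is 0.953%. Both wild-type libraries alone held 5 sites (8.33%), against 6.52% of all sites, which is close to the background. The strongest of the 5 lay 14.0 kb before Stat2, at an end of Apon, with folds of 12.5 and 9.08 in wild-type cells. The other 4 lay 9.09 kb from Ifnar1, 37.7 kb from Tyk2 inside Pde4a, 17.7 kb from Irf1 and 33.0 kb from Irf3 inside Prr12. Their folds ran from 5.89 to 9.73 in wild type 1 and from 4.99 to 6.89 in wild type 2. With 13877 peaks per list there were 3 such sites. There were 13 when knockout 2 was left out and 18 when wild type 2 was left out. Without knockout 1 there were 2 sites in the remaining knockout list alone. The shares over all sites were not counted for these settings, so the 6.52% and 0.953% above are not their background.

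**Figure D3:**
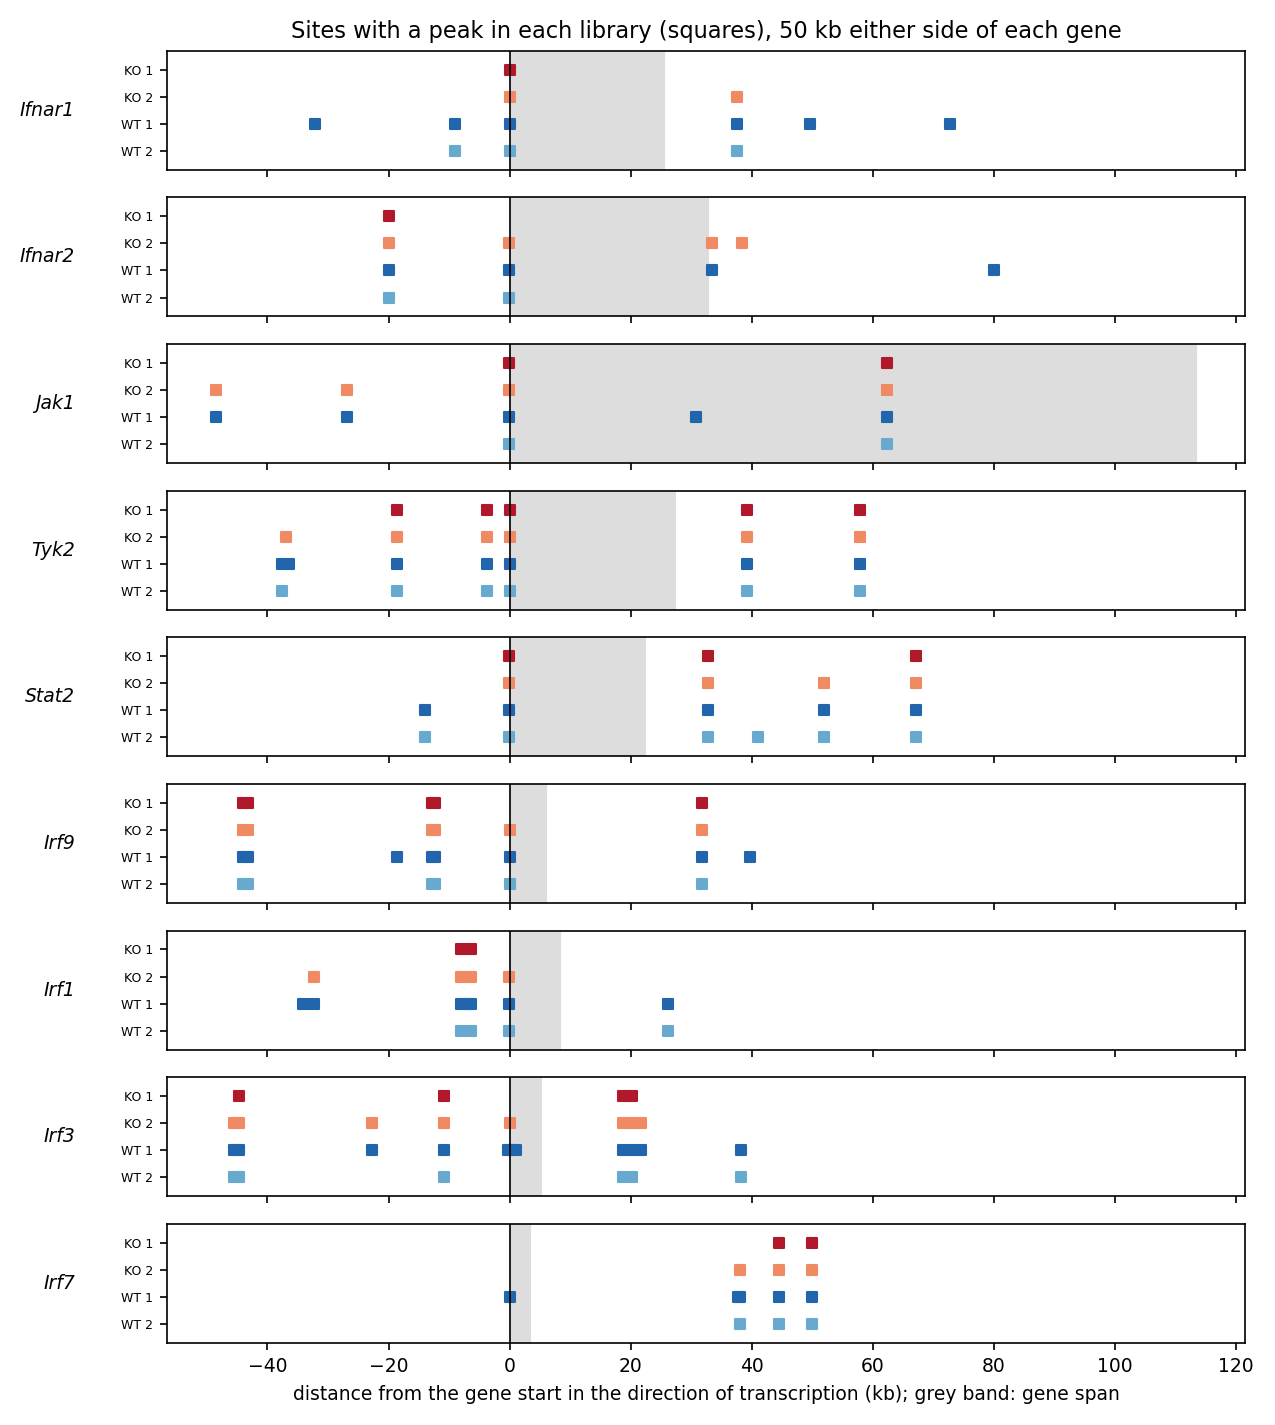
Sites with a peak in each library (squares, 1 lane per library, knockout lanes above wild-type lanes) against distance from the gene start in kb in the direction of transcription, from 50 kb before to 50 kb after each member, with the gene span in grey. Starts of Ifnar1, Jak1, Tyk2 and Stat2 carry a square in all 4 lanes, and Irf7 only in that of wild type 1.

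To compare strength between lists of unequal length, the 10977 sites that all 4 lists hold were ranked by −log10 q in each library, and a site's percentile among them was used. Of the 25 member sites in this set, 9 (36.0%) had both knockout percentiles below both wild-type percentiles and 1 had both above. Over all 10977 sites these shares were 25.0% and 22.7%. The split was 6 lower and 4 higher when sites were ranked by fold, and 6 lower and 2 higher with percentiles taken within each chromosome. When 1 library was left out the numbers rose, to 17 lower and 9 higher of 32 shared sites without knockout 1. They were 15 lower and 6 higher of 25 without knockout 2, and 5 of 25 were higher without wild type 1. Fewer libraries make such separation easier by construction. The shares over all shared sites were not counted for these settings, so the 25.0% and 22.7% above are not their background. The median difference was -2.66 percentile points over the 25 sites, against -0.549 over all. On chromosomes 9 and 10, which carry Tyk2 and Stat2, 6 of the 8 member sites lay lower in knockout, where the background of these chromosomes is 40.6% and 41.6%. On the other chromosomes 3 of 17 did, against 23.1% of all shared sites there. These 25 sites share libraries, and some share a chromosome, so they are not independent of each other. For a single site, 2 libraries against 2 cannot give a two-sided exact permutation p under 0.333.

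The largest of these differences lay beside Tyk2. A site 3.79 kb before its start (chromosome 9, 21135061-21135375), outside any protein-coding gene, had folds of 8.06 and 8.43 in the knockout libraries, against 14.9 and 14.3 in the wild-type libraries. It stood at percentiles 55.3 and 46.2 in the knockout libraries, against 81.2 and 84.9 in the wild-type libraries. The means were 50.7 ± 6.39 in knockout and 83.1 ± 2.57 in wild-type cells (SD, n = 2 each), a difference of -32.3 points with an exact permutation p of 0.333, the smallest possible. The median difference of the shared sites on chromosome 9 was -4.81 points, and 4.49% of them lay lower than this one. It remained at -27.1 points when percentiles were taken within chromosome 9, and at -22.7 when sites were ranked by fold.

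The same site overlaps a region of 400 bp that the authors' deposited list names as enriched in wild-type cells (chromosome 9, 21134983-21135382). None of the 189 regions enriched in knockout cells and only this one of the 190 enriched in wild-type cells falls in the windows of the members. Over all protein-coding genes 1.94% had a knockout-enriched and 2.38% a wild-type-enriched region within the same reach. On chromosome 9 the knockout-enriched share was 0.999% and the wild-type-enriched share 7.08%, and on chromosome 10, which carries Stat2, they were 0.200% and 11.4%. Tyk2 is the protein-coding gene nearest to the region, and Cdc37, which encodes a chaperone partner of kinases, is the next. Both deposited lists may rest on these 4 libraries, so the overlap may not be independent of the percentiles above.

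The start of Tyk2 and 2 other sites of its window were also lower in both knockout libraries. So were 40.6% of all shared sites on chromosome 9. The start stood at percentiles 50.0 and 47.8 in the knockout libraries, against 63.5 and 65.8 in the wild-type libraries. The means were 48.9 ± 1.52 in knockout and 64.7 ± 1.65 in wild-type cells (SD, n = 2 each), a difference of -15.8 points with an exact permutation p of 0.333. It was -7.81 points within chromosome 9, and -2.18 points with overlapping genotypes when sites were ranked by fold. A site at an end of Raver1, 39.3 kb after the start of Tyk2, stood at 64.5 and 74.5 in knockout cells, against 83.4 and 86.7 in wild-type cells. One at an end of Cdc37, 18.5 kb before the start, stood at 30.1 and 28.0 in knockout cells, against 40.6 and 33.7 in wild-type cells. The shared site farthest off, at ends of Fdx2 and Raver1 and 57.8 kb after the start, did not follow them. It stood at 51.2 and 29.1 in knockout cells, against 33.4 and 23.8 in wild-type cells, and the genotypes overlap there. Of the shared sites on chromosome 9, 26.0% had a lower difference than the Tyk2 start. For the sites 39.3 kb after and 18.5 kb before the start, 26.9% and 41.7% did.

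**Figure D4:**
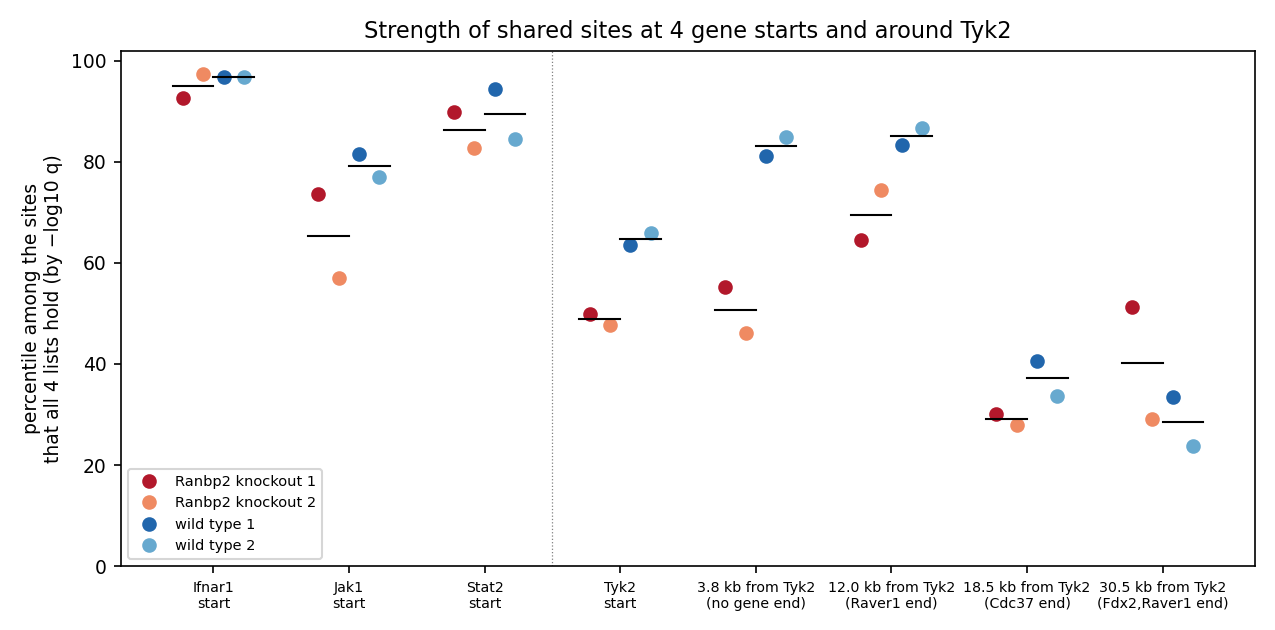
Percentile among the 10977 sites that all 4 lists hold (y axis, by −log10 q) for the starts of Ifnar1, Jak1, Stat2 and Tyk2 and for the 4 flanking shared sites of Tyk2 (x axis), with 1 point per library and a line at each genotype's mean. The site 3.8 kb from Tyk2 has means of 50.7 in knockout and 83.1 in wild-type cells.

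Of the other start sites in this set, that of Jak1 separated the genotypes and those of Ifnar1 and Stat2 did not. Jak1 stood at 73.6 and 57.1 in knockout cells, against 81.5 and 77.0 in wild-type cells. The difference was -13.9 points with an exact permutation p of 0.333 (n = 2 each), while the median of chromosome 4 was -0.565. Without knockout 2 it was -5.56 points. Ifnar1 stood at 92.6 and 97.4 in knockout cells, against 96.8 and 96.8 in wild-type cells, a difference of -1.77 with an exact permutation p of 1, and it was 0.465 without knockout 1. Stat2 stood at 89.9 and 82.7 in knockout cells, against 94.4 and 84.6 in wild-type cells. Its difference of -3.17 points (exact permutation p = 0.667) was 3.02 when percentiles were taken within chromosome 10, whose median is -5.46. It was 0.430 without knockout 2 and 1.73 without wild type 1.

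Inside Jak1 a site in all 4 libraries lay 62.4 kb after the start, in the body of the gene. It stood at 62.7 and 35.7 in knockout cells, against 42.4 and 45.9 in wild-type cells, so it overlapped where the start did not. A site 20.0 kb before Ifnar2 was lower in knockout, at 43.8 and 34.6, against 48.0 and 63.2 in wild-type cells. The 1 site that was higher lay 8.03 kb before Irf1, with percentiles of 47.1 and 41.9 in knockout cells, against 35.6 and 31.7 in wild-type cells. Its neighbour 6.33 kb before Irf1 overlapped, at 56.5 and 66.7 in knockout cells, against 70.4 and 55.6 in wild-type cells. None of the shared sites around Irf3 and Irf7 separated the genotypes, while 1 of the 5 around Irf9, at an end of Dcaf11, was lower in both knockout libraries.

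**Figure D5:**
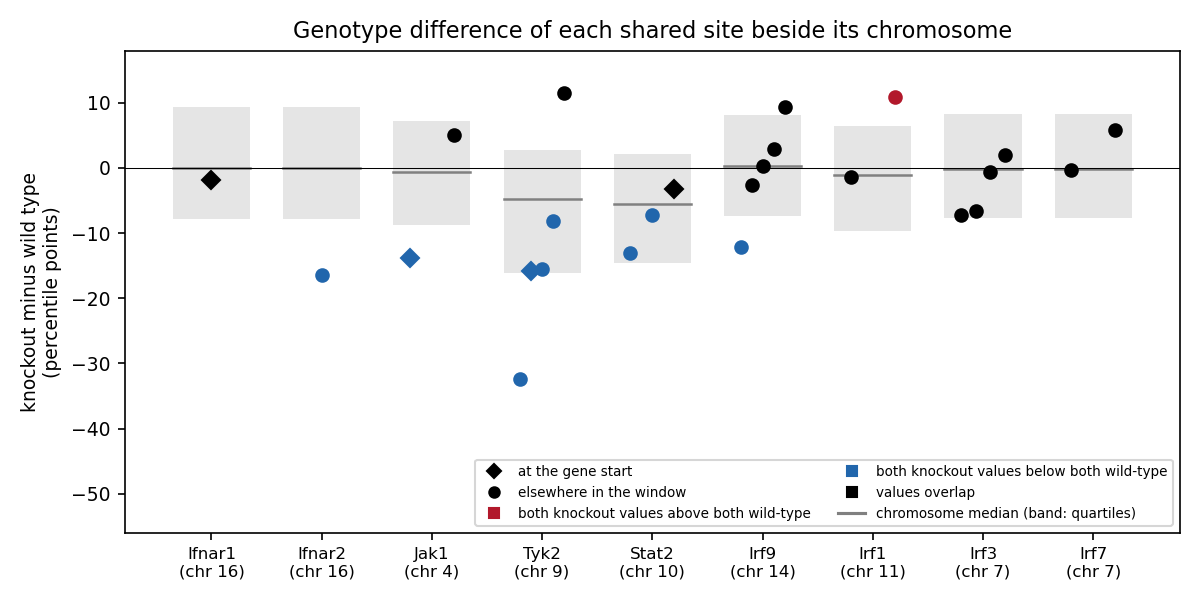
Knockout minus wild-type mean percentile (y axis, points) of each of the 25 shared sites, by member with its chromosome (x axis), with diamonds for gene starts, colours for sites whose libraries do not overlap, and the median and quartiles of all shared sites of that chromosome in grey. Tyk2 has the lowest value, -32.3 points, and the chromosome 9 median is -4.81.

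With all 4 libraries and percentiles over all chromosomes, the start of Tyk2 had the largest difference of the 4 start sites by −log10 q. Jak1 had the larger one within chromosomes, at -14.1 against -7.81 points, by fold, at -16.0 against -2.18, without knockout 1, at -16.3 against -12.6, and without wild type 2, at -14.6 against -13.8. The gene-end sites nearest to the 4 percentiles of the Tyk2 start were looked up among 5777 other genes. They were those of Senp5, a SUMO protease, at a Euclidean distance of 4.95 percentile points over the 4 libraries, Drg2 at 5.08 and Spata24 at 5.95. Their differences were -12.5, -11.7 and -10.1 points.

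A wider list of 64 other genes of interferon sensing, signalling and response was set beside the members. In all 4 libraries 14 (21.9%) had a gene-end peak, against 26.4% of all protein-coding genes, and 30 (46.9%) had none in any library, against 56.6% of all protein-coding genes. The counts by role that follow are over few genes and are to be read against these shares. By role, the 17 interferon-stimulated effectors had 3 in all 4 libraries, Ifit2, Eif2ak2, the double-stranded RNA kinase, and Ifi35, and 11 (64.7%) in none, Isg15, Rsad2 and Cxcl10 among them. The 16 genes of nucleic acid sensing had 3 in all 4, Mavs, the mitochondrial adaptor of RNA sensing, Ticam1 and Traf6, and 8 (50%) in none, with the interferon gene Ifnb1 and the sensors Ifih1 and Cgas among these. Of the other IRF genes, 4 of 5 had none, against the same 56.6%.

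No gene end of this wider list was held by both knockout libraries alone. Dhx58, a regulator of RNA sensing, had a peak in knockout 1 alone, with a fold of 7.45. Irf2, Usp18, Irak1, Zbp1, Bst2, Xaf1, Nlrc5 and Crebbp had one in wild type 1 alone, the longest list. The shares of all genes with a peak in just one of these lists were not counted. Both wild-type libraries alone held Socs3, a feedback inhibitor of cytokine receptors, and Tlr3, an endosomal RNA sensor, which is 3.12% of the list, against 1.69% of all genes. Their folds were 6.55 and 5.31 for Socs3 and 6.32 and 6.5 for Tlr3 in wild type 1 and 2. Of 15 genes with a shared gene-end site, 3 were lower in both knockout libraries, against 25.0% of all shared sites. These were Mavs, Ifi35 and Ptpn2, a phosphatase that acts on JAKs and STATs, with differences of -4.09, -17.2 and -7.83 points. None was higher, against 22.7% of all shared sites. Psmb9 and Tap1 had the same values in every library and so count 1 site as 2 genes. Ep300 is counted although knockout 1 had no summit within 1 kb of its gene ends.

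Close to the members in the pathway are the interferon-gamma receptor and SOCS1. Ifngr1, the ligand-binding chain of the interferon-gamma receptor, had 16.2 and 17.4 in the knockout libraries, against 21.5 and 20.6 in the wild-type libraries as folds. Its percentiles among shared sites overlapped, at 94.5 and 90.6 in knockout cells, against 94.2 and 95.5 in wild-type cells, a difference of -2.25 points where the chromosome 10 median is -5.46. Ifngr2 had no gene-end peak in any list. Socs1, a feedback inhibitor of JAKs, had none in knockout 1 and 4.29 in knockout 2, against 8.78 and 5.67 in the wild-type libraries.

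Deposited knockout-enriched regions lay within 50 kb of 1 gene of the wider list (1.56%, against 1.94% of all genes) and wild-type-enriched regions within 50 kb of 4 (6.25%, against 2.38%). Ikbke, a kinase that activates IRF3 and IRF7, had the knockout-enriched region, at 15.3 kb. The span of Ifngr1 overlapped its wild-type-enriched region. Stat6, which signals for interleukin-4, had 2 such regions, and Jak2, a kinase of the interferon-gamma receptor, had 1 at 17.4 kb. Ifngr1 and Stat6 lie on chromosome 10, as does Stat2.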

How the data were processed

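The members and gene lists were chosen with earlier results of these data known. Per the submitters' processing notes the build was mm10, and MACS2, Bowtie2, cutadapt, DESeq2, DiffBind 2.2.12 and deepTools are listed without roles or settings. Those are not given here. The authors deposited 1 peak list per library, with a summit position, a score, a fold enrichment (the ratio over the library's own local background) and −log10 p and −log10 q values per peak, and these are the authors' own values, used here only to describe and rank peaks within a list. The deposited score was not used. The lowest −log10 q was 3.00 to 3.02. A pair of differential region lists, deposited as positions alone, was also read. How they were made is not stated in those files.

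Peaks were assigned by summit to RefSeq gene spans (GRCm38.p6, the primary coordinates of mm10), with gene strand from the RefSeq promoter table, in which all 9 members were matched. Summits within 1 kb of either end of a span count as gene ends, and the reach around a span was 50 kb. Peaks overlapping by at least 1 bp were joined into sites, and sites present in all 4 lists were ranked in each library by −log10 q. Per site, genotypes were compared with a two-sided exact permutation test over libraries. Read depth is unknown, as no file holds counts. Members were never tested as a group, and their counts are set beside the same share over all genes or sites. Genes named were all members, neighbours whose gene-end site in a member's reach was present in 1 genotype only or in a differential region, wider-list genes of that kind or within 50 kb of a differential region, Ifngr1, Ifngr2 and Socs1, and the 3 nearest patterns. Some genes that the rule names are not reported here. Other names were chosen after their values were seen. Joining and ranking were tested on simulated peaks. Python 3.11.15, numpy 2.4.6 and pandas 2.3.3 were used.

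Replicate numbers come from the titles; the library names carry other numbers, 2 and 3 for knockout and 1 and 3 for wild type. Alternatives were equal list length, a stricter −log10 q, joining by summits, other distances, ranking by fold or within the chromosome, pairing by replicate number and leaving out each library.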

Additional observations from a re-analysis of the deposited data

How the results depend on the processing

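The direction of the Jak1 and Tyk2 start differences and of the site 3.79 kb before Tyk2 held under all alternatives run, the last ranging from -38.0 to -22.7 points. The Stat2 difference did not: it was 3.02 within its chromosome and -7.28 to 1.73 (0.430 without knockout 2) when 1 library was left out. That of Ifnar1 was then -4.12 to 0.465, Jak1 -16.3 to -5.56 and Tyk2 -16.9 to -12.6. With 1 library left out, 4 to 7 members had a gene-end peak in every remaining list and 0 to 3 in wild-type lists alone, knockout-only sites numbered 0 to 2, wild-type-only sites 5 to 18, and shared sites lower in knockout 9 to 17 and higher 2 to 9. Fewer libraries make such separation easier by construction. With equal list length there were 33 sites, 3 of them in wild-type lists alone, and 1 member (Irf9) with a gene-end peak in these alone; a −log10 q of at least 5 also left 3. Within 10 kb there were 20 sites, 8 in all 4 lists, 1 in wild-type lists alone and 3 lower in knockout, and within 100 kb 98 sites, 43 in all 4 lists and 2 higher in knockout. Sites higher in knockout numbered 2 within chromosomes and 4 by fold, with 6 lower in each; the cause was not tested. With libraries paired by replicate number as a block, 3 were higher and 11 lower in both pairs, and the smallest exact permutation p is 0.5. Deviations of same-numbered libraries correlated at 0.0290, and the labels do not say that a number marks a shared batch. Of the recomputed values, 4 differences reversed and 26 counts moved by over 1.5 times. The other 131 did neither, but some differences shrank: by fold, Tyk2 was -2.18, Stat2 -0.387 and the median of the 4 start sites -1.90, against -8.52 by −log10 q. No test of 2 libraries against 2 can pass 0.05, so a kept direction is no sign of significance.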

Other observations

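Several of the strongest accessible sites near these genes lay at ends of neighbours that are neither members nor in the wider list. Beside Irf9, a site at ends of Psme2, a proteasome activator subunit, and Rnf31, a subunit of the linear ubiquitin ligase, stood at percentiles 93.6 and 93.7 in knockout cells, against 95.1 and 91.4 in wild-type cells. A site at an end of Rras, a small GTPase next to Irf3, stood at 95.1 and 89.5 in knockout cells, against 92.6 and 93.1 in wild-type cells. One at an end of Prmt1, an arginine methyltransferase, stood at 86.6 and 96.1 in knockout cells, against 89.3 and 89.4 in wild-type cells. Beside Stat2, the site at an end of Pan2, a deadenylase subunit, stood at 87.6 and 87.9 in knockout cells, against 96.9 and 93.0 in wild-type cells, and the genotypes did not overlap there. Its difference was -7.23 points, where the chromosome 10 median is -5.46. On that chromosome 41.6% of shared sites were lower in both knockout libraries, and 43.6% had a lower difference than this one.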
